A study of Mus musculus with 7 samples.

Results

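Foxp3, its relatives Foxp1 and Foxp4, and the 5 Ikaros family genes Ikzf1 to Ikzf5 were followed in regulatory T cells. The cells came from mice labelled as Id2 and Id3 double knockouts and from controls. These 8 genes were taken by symbol from a table of 39179 genes, and all 8 were found and tested. Lymph nodes of C57BL/6 mice, 3 weeks old, were the source, and CD4+TCRb+CD25hi Foxp3+ cells were sorted from them. Double-knockout (dKO) mice had the genotype Id2fl/flId3fl/flFoxp3cre, with both alleles of each Id gene floxed; the series' design text writes the Cre allele of these mice as Foxp3Cre/Cre. Control mice had the genotype Id2fl/+Id3fl/+Foxp3cre, so they too carried the Cre and 1 floxed allele of each gene. In both groups the Cre recombinase was driven from Foxp3, so it acts in cells that express Foxp3, and Foxp3 was also used for the sort. There were 3 dKO and 2 control libraries with a replicate number, and a single pair of 1 library labelled dKO and 1 labelled control. In the pair, the genotype tags are the reverse of the titles. The labels do not say whether libraries came from separate animals, so the spread behind the p-values may be technical.

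Foxp3 is the forkhead transcription factor that specifies and maintains regulatory T cells, and its loss causes fatal autoimmunity. Foxp1 and Foxp4 share its forkhead domain and can form dimers within the family. The Ikaros family are zinc finger proteins that bind DNA through fingers near the amino end, pair with each other through fingers at the carboxyl end, and recruit repressor complexes such as NuRD. Ikaros (Ikzf1), Helios (Ikzf2), Aiolos (Ikzf3) and Eos (Ikzf4) are present in T cells, and Helios and Eos are known as markers and cofactors of regulatory T cells. Id2 and Id3 are inhibitors of the E proteins, transcription factors that bind the E-box, CANNTG.

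The members resemble each other in coding sequence in part. In GENCODE M21 coding sequences (GRCm38), a search of the translated frame for the finger pattern C-x2-C-x12-H-x3to5-[HC] found 6 fingers in each of Ikzf1, Ikzf2, Ikzf3 and Ikzf4 and 5 in Ikzf5. Between Ikzf1 and Ikzf3, 63.8% of aligned coding bases were the same, and between Ikzf2 and Ikzf4 63.6%. The longest run of bases shared by any transcripts of 2 Ikaros genes was 32 bases, in Ikzf2 and Ikzf4, and between Ikzf3 and Ikzf4 it was 20 bases. Foxp1 and Foxp4 shared at most 21 bases in a row, and Foxp3 shared at most 18 with either of them. The second finger, part of the DNA-binding region, is shown for Ikzf1 to Ikzf4, to set a conserved part of the family side by side. Capitals mark bases that differ from Ikzf1.
Ikzf1: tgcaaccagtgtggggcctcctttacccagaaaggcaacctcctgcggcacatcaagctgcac
Ikzf2: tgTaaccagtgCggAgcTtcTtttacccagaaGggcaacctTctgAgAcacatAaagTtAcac
Ikzf3: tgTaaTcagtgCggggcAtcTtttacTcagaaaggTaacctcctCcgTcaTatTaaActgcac
Ikzf4: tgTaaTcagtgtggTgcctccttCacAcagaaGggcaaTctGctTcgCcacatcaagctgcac
Over these 63 bases Ikzf2 and Ikzf3 each differed from Ikzf1 at 12 and Ikzf4 at 10. In Ikzf5 the best match among its 5 fingers was finger 4, toward the carboxyl end, which differed at 32 of 63 bases. It is not the second finger, so this count does not give the divergence of the DNA-binding region.

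Promoter sequences, from 250 bases before to 50 after a start site, were given by RefSeq (GRCm38.p6) for 5 of the 8 members, Foxp3, Foxp1, Foxp4, Ikzf1 and Ikzf5, with 9 starts in all. They are shown for Foxp4 and for 1 start of Foxp1, since these members passed the test in opposite directions, and for Foxp3. Capitals mark each E-box, CANNTG, which reads the same on both strands.
Foxp4, chr17:47924583-47924882, minus strand: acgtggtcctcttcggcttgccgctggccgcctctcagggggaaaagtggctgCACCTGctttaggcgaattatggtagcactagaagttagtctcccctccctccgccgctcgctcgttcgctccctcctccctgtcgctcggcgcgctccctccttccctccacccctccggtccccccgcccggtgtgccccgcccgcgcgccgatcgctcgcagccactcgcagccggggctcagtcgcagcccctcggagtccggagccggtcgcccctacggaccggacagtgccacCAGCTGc
Foxp1, chr6:99028249-99028548, minus strand: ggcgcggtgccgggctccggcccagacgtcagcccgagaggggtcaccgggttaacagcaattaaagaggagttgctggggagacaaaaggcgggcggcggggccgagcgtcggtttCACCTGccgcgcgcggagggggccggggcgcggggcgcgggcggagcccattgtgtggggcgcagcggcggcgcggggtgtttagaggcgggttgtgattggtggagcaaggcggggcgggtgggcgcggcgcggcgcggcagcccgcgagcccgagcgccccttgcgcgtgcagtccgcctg
Foxp3, chrX:7579426-7579725, plus strand: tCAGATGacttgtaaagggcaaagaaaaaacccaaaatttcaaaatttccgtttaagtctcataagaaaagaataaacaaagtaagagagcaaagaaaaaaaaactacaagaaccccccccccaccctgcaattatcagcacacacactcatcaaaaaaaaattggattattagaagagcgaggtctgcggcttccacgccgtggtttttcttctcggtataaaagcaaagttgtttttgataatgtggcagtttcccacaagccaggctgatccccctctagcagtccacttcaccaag
The Foxp4 promoter held 2 E-boxes, 1 CACCTG and 1 CAGCTG, the forms that E proteins are known to prefer. The Foxp1 promoter shown held 1, a CACCTG, and its other starts held 1 and 3 E-boxes of other forms. The Foxp3 promoter shown held 1, at its far edge, and a second start of Foxp3 held 3, among them 1 CAGCTG. Ikzf5 held 1 CAGCTG and both starts of Ikzf1 held 0. Among all 32851 promoters in the RefSeq table, 72.3% held CANNTG, 16.3% held CAGCTG and 20.2% held CAGGTG or its complement CACCTG (the general motif overlaps both of these forms). A match in this window is not a binding site.

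Markers of the labelled cell type were present: the 11 lineage genes averaged at least 8145 scaled counts in dKO and 9767 in control. Foxp3, Cd4 and Il2ra among them were also part of the sort. Of the 11, 1 rose (Ctla4, log2 fold change 1.01), 0 fell and 10 did not pass (DESeq, adjusted p under 0.05), by the authors' deposited table. The share that passed was 6.56% over all genes and 13.3% where the mean reached 10. In the authors' deposited table Cd4 averaged 32790 scaled counts in dKO and 26431 in control, and Il2ra, which encodes CD25, averaged 32126 in dKO and 32376 in control. Scaled counts are the authors' group means of reads divided by a size factor per library. They have no SD, and the unit is not per length. Scaled counts summed over all genes to 3.99e+07 in dKO and 3.90e+07 in control. The steps of the smallest values gave size factors of 0.929, 0.910 and 0.860 for the dKO libraries and 1.29 and 1.09 for the control libraries. Id2 averaged 61.1 scaled counts in dKO and 783 in control (adjusted p 1.48e-08, DESeq), and Id3 averaged 891 in dKO and 1376 in control (adjusted p 0.209, DESeq), in the authors' deposited table.

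Of the 8 members, 2 rose (Ikzf3 and Foxp4), 2 fell (Ikzf4 and Foxp1) and 4 did not pass the authors' test (DESeq, adjusted p under 0.05 over all genes). Over all genes 6.56% passed, of which 3.38% of all genes were higher and 3.18% lower. Where the mean reached 1000 scaled counts, as it did for all 8 members, 13.4% passed, and where it reached 10, 13.3%. The same 4 members were called with an adjusted p under 0.01, as were 4.53% of all genes, and with an adjusted p under 0.1, as were 8% of all genes. With p-values adjusted again over genes with a mean of at least 10, 16.2% passed and Foxp3 (0.0934) and Ikzf2 (0.0661) still did not. Over genes not marked as overlapping another, 6.69% passed, and Ikzf2, the only member among them, did not. The median log2 fold change of the members was -0.20, and that of the 15446 genes whose mean was at least 10 was -0.01.

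**Figure D1:**
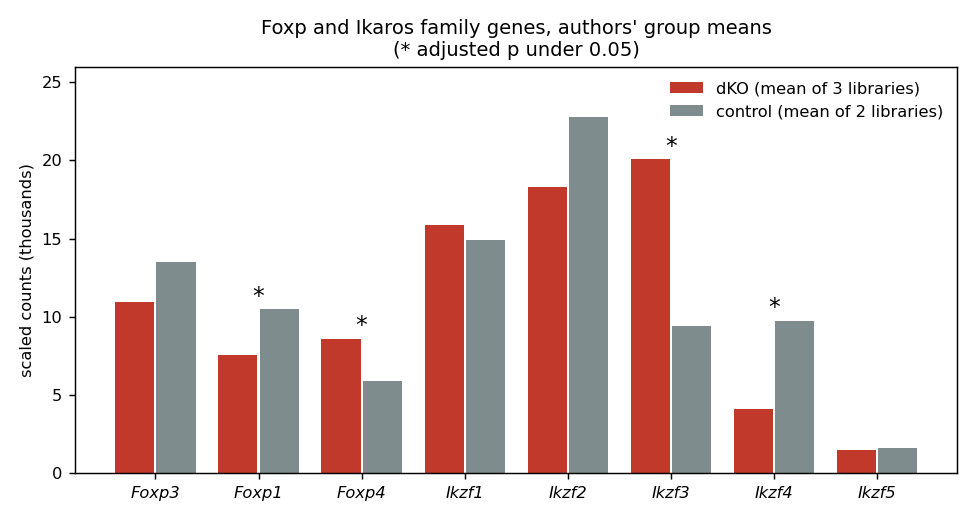
Group means of the 8 members in units of 1000 scaled counts, dKO (3 libraries) left and control (2 libraries) right of each pair of bars, with no error bar because the deposited values are means only. Ikzf3 and Foxp4 are higher and Ikzf4 and Foxp1 lower in dKO, and these 4 carry the asterisk of an adjusted p under 0.05.

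Ikzf3 encodes Aiolos, which is abundant in B lymphocytes and is known to repress Il2 in T helper 17 cells. It averaged 20093 scaled counts in dKO and 9433 in control in the authors' deposited table. That is a ratio of 2.13 (log2 fold change 1.09, adjusted p 1.72e-12, DESeq), and 7.70% of those 15446 genes had a larger log2 fold change in either direction. The gene lies on the minus strand of chromosome 11, 98464902 to 98546031 (GRCm38), and ranked 154th of 31641 genes by the authors' raw p. Among B cell markers, Ms4a1 averaged 1.47 scaled counts in dKO and 1.76 in control, and Pax5 6.28 in dKO and 1.69 in control, by the authors' deposited table. The 14 B cell markers together summed to 1456 scaled counts in dKO and 1268 in control, with 0 that rose, 0 that fell and 1 of 16 table rows, a second listing of Ebf1, at 0 in both groups. Most of that sum came from Cd79b (1006 in dKO and 894 in control) and Cd22 (266 in dKO and 172 in control), while Ms4a1 was near 0, in the authors' deposited table.

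Ikzf4 encodes Eos, a corepressor known to act with Foxp3 and CtBP1 in silencing genes in regulatory T cells. It averaged 4071 scaled counts in dKO and 9752 in control in the authors' deposited table, so that dKO held 41.7% of the control level (log2 fold change -1.26, adjusted p 4.56e-13, DESeq). Of the 15446 genes, 5.64% had a larger log2 fold change in either direction. The gene lies on the minus strand of chromosome 10, 128630843 to 128645991, and ranked 139th of 31641 by the authors' raw p. On this scale Ikzf3 and Ikzf4 had the largest changes of the 8 members, in opposite directions.

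Ikzf2 encodes Helios, which is expressed in most thymus-derived regulatory T cells and is linked to their stability. It averaged 18296 scaled counts in dKO and 22751 in control in the authors' deposited table. With a log2 fold change of -0.31, a raw p of 0.0117 and an adjusted p of 0.134 (DESeq), it did not pass. Ikzf2 is on chromosome 1 (69531214 to 69685960) and is the only member that the table does not mark as overlapping another gene. Ikzf1, the founding member, averaged 15850 scaled counts in dKO and 14935 in control (log2 fold change 0.09, raw p 0.502) in the authors' deposited table. Ikzf5, the most divergent member, also called Pegasus, had the lowest level, with averages of 1465 scaled counts in dKO and 1577 in control (log2 fold change -0.11, raw p 0.421) in the authors' deposited table. Neither Ikzf1 nor Ikzf5 passed, with adjusted p-values of 1 for each.

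**Figure D2:**
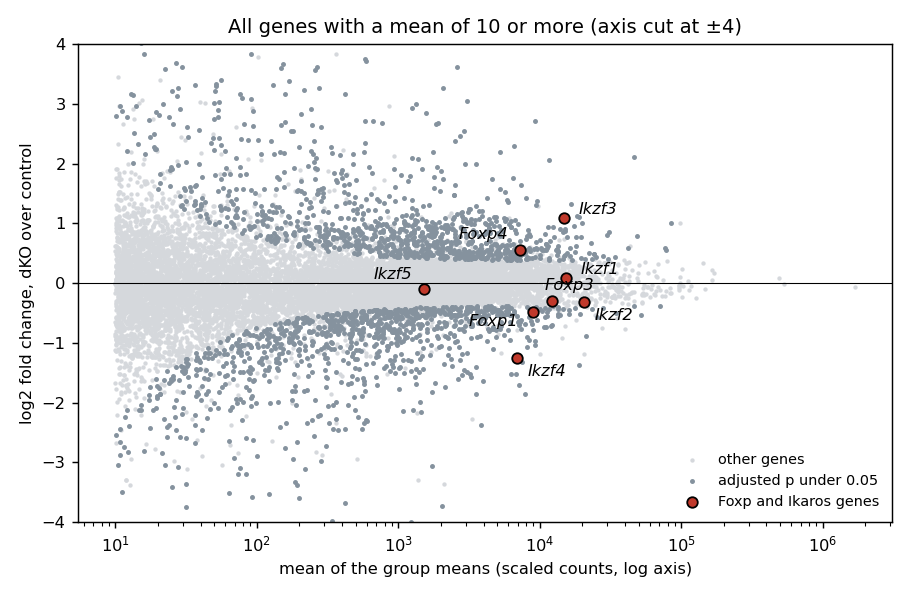
Log2 fold change (dKO over control) against the mean of the group means (scaled counts, log axis) for the 15446 genes whose mean was at least 10, with 40 genes beyond 4 in either direction outside the axis. The 8 members (red) lie at the right, at means of 1521 or more, and Ikzf3 and Ikzf4 stand farthest from 0 among them.

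The summed level of the Ikaros family was close in dKO and control while its make-up differed. Per kilobase of the exon length given in the table, Ikzf1 to Ikzf5 summed to 7961 scaled counts in dKO and 8028 in control, a log2 ratio of -0.01. Ikzf3 made up 28.8% of that sum in dKO and 13.4% in control. Ikzf4 made up 8.53% in dKO and 20.3% in control. Ikzf1 contributed 34.5% in dKO and 32.2% in control, and Ikzf2 24.4% in dKO and 30.1% in control. The ratio of Ikzf3 to Ikzf4 per kilobase was 3.38 in dKO and 0.662 in control. These sums and shares are derived from group means, depend on the exon lengths used, and carry no test.

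**Figure D3:**
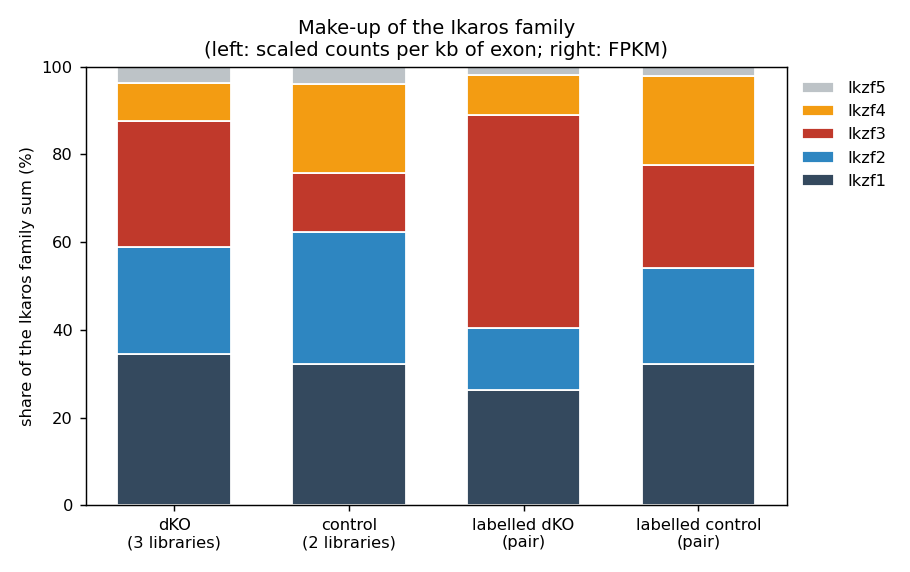
Share of each gene in the Ikaros family sum, in percent, from scaled counts per kilobase of exon (left bars) and from FPKM of the single pair (right bars). The Ikzf3 share is 28.8% in dKO and 13.4% in control, and 48.5% in the library labelled dKO and 23.6% in the library labelled control.

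Foxp3, on the plus strand of the X chromosome (7579676 to 7595243), averaged 10942 scaled counts in dKO and 13481 in control in the authors' deposited table. That is 81.2% of the control level (log2 fold change -0.30, raw p 0.0188, adjusted p 0.188, DESeq), and Foxp3 did not pass. Because Foxp3 was part of the sort gate, its level here is that of cells already selected for it. The Cre was also driven from Foxp3 in both groups. The part of that allele, or of its copy number, in the Foxp3 level was not tested. Each of 4 genes of the Y chromosome averaged lower in dKO, though 0 passed. By the authors' deposited table, Ddx3y averaged 1.5 scaled counts in dKO and 464 in control (adjusted p 0.222, DESeq). Eif2s3y averaged 3.30 in dKO and 508 in control (adjusted p 0.299, DESeq) in the authors' deposited table. Kdm5d averaged 2.56 in dKO and 112 in control, and Uty 17.8 in dKO and 128 in control, in the authors' deposited table. Xist averaged 17063 in dKO and 19641 in control (adjusted p 1, DESeq) in the authors' deposited table, and group means do not show whether both control libraries carried the Y-linked reads. Whether the groups differed in the sex of the mice was not tested. Nor was the part of such a difference in the values of the members, among them the X-linked Foxp3.

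The relatives of Foxp3 moved apart. Foxp4, which in mouse T cells is known to affect recall cytokine responses rather than development, rose to 8595 scaled counts in dKO, against 5877 in control, in the authors' deposited table (log2 fold change 0.55, adjusted p 0.0013, DESeq). Foxp1, which keeps naive T cells quiescent and helps Foxp3 to bind chromatin, fell to 7527 scaled counts in dKO, against 10494 in control, in the authors' deposited table (log2 fold change -0.48, adjusted p 0.0043, DESeq). Both changes are smaller than those of Ikzf3 and Ikzf4. Of the 15446 genes, 22.9% had a larger log2 fold change in either direction than Foxp4, and 26.6% than Foxp1. Foxp4 lies on chromosome 17 (47867133 to 47924645) and Foxp1 on chromosome 6 (98925338 to 99522721), both on the minus strand. Per kilobase of exon, the ratio of Foxp4 to Foxp1 was 3.31 in dKO and 1.62 in control. These ratios depend on the exon lengths used, 14266 bases for Foxp1, with 32 transcripts, and 4926 for Foxp4. By FPKM of the single pair the ratio was 1.94 in the library labelled dKO and 1.46 in the library labelled control. Foxp2, the remaining gene of this family, averaged 6.65 scaled counts in dKO and 8.51 in control in the authors' deposited table.

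The table marks 7 of the 8 members as overlapping another gene, against 41.5% of all tested genes, and the overlaps of the 4 genes that passed were small. In GENCODE M21 (GRCm38), 0 of the exonic bases of Ikzf3 and of Foxp4 are shared with the genes that overlap them in the table. Ikzf4 shares 0.617% of its exonic bases with a long intergenic RNA on the opposite strand that averaged 5.90 scaled counts in dKO and 10.5 in control in the authors' deposited table. Foxp1 shares 2.18% with a predicted gene, Gm20696, which averaged 28.9 scaled counts in dKO and 46.2 in control in the authors' deposited table. Foxp3 overlaps most: 18.6% of its exonic bases lie in 4930524L23Rik, 12.9% in Ccdc22 and 5.81% in Ppp1r3f. Ccdc22 averaged 1120 scaled counts in dKO and 932 in control, and 4930524L23Rik averaged 720 in dKO and 912 in control, in the authors' deposited table. The sources used here do not say if reads were counted by strand.

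The single pair was measured in FPKM, fragments per kilobase of transcript scaled to library size, for each RefSeq transcript entry, and these values can be compared between genes. Since there was 1 library of each kind, there is no test, and a ratio past 1.5-fold on the scale of log2(FPKM + 1) is used to describe size. Id2 was at 9.69 FPKM in the library labelled dKO and 18.6 FPKM in the library labelled control, and Id3 was at 221 FPKM in the library labelled dKO and 160 FPKM in the library labelled control. Id2 was therefore lower in the library titled dKO, as it was in the numbered dKO libraries, but Id3 was not.

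Of the 8 members, 3 lay past 1.5-fold in the pair, where 17.4% of the 8681 genes with 5 or more FPKM did (8.05% higher and 9.35% lower in the library labelled dKO). Ikzf3 was at 178 FPKM in the library labelled dKO and 76.1 FPKM in the library labelled control, a log2 ratio of 1.22. Ikzf4 was at 33.6 FPKM in the library labelled dKO and 64.9 FPKM in the library labelled control, a log2 ratio of -0.93. Foxp4, summed over 3 entries, was at 113 FPKM in the library labelled dKO and 73.9 FPKM in the library labelled control, a log2 ratio of 0.61. By the titles, these 3 genes had the same direction as in the replicated groups, and Ikzf3 and Ikzf4 were again the members farthest from 0. Foxp4 lies close to the limit: with FPKM scaled to the same total its log2 ratio was 0.57, and for its highest entry alone 0.40, against a limit of 0.58.

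Foxp1 went the other way. Summed over its 3 entries it was at 58.2 FPKM in the library labelled dKO and 50.6 FPKM in the library labelled control, a log2 ratio of 0.20, whereas it fell in the replicated groups. With the highest entry of each library in place of the sum, its log2 ratio was -0.02. Foxp3 was at 99.7 FPKM in the library labelled dKO and 126 FPKM in the library labelled control (log2 ratio -0.33). Ikzf2 was at 51.5 FPKM in the library labelled dKO and 69.8 FPKM in the library labelled control (log2 ratio -0.43). Foxp3 and Ikzf2 had the same sign and a like size as in the replicated groups, without passing the test there or 1.5-fold here. Ikzf1, at 96.9 FPKM in the library labelled dKO and 104 FPKM in the library labelled control, and Ikzf5, at 7.08 FPKM in the library labelled dKO and 7.05 FPKM in the library labelled control, lay near 0 in both comparisons. With the pair read by its titles, 5 of 8 members had the same sign in both comparisons. Read by its genotype tags, every ratio of the pair turns round, 3 of 8 members (Foxp1, Ikzf1 and Ikzf5) have the same sign, and Ikzf3, Ikzf4 and Foxp4 have opposite signs.

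**Figure D4:**
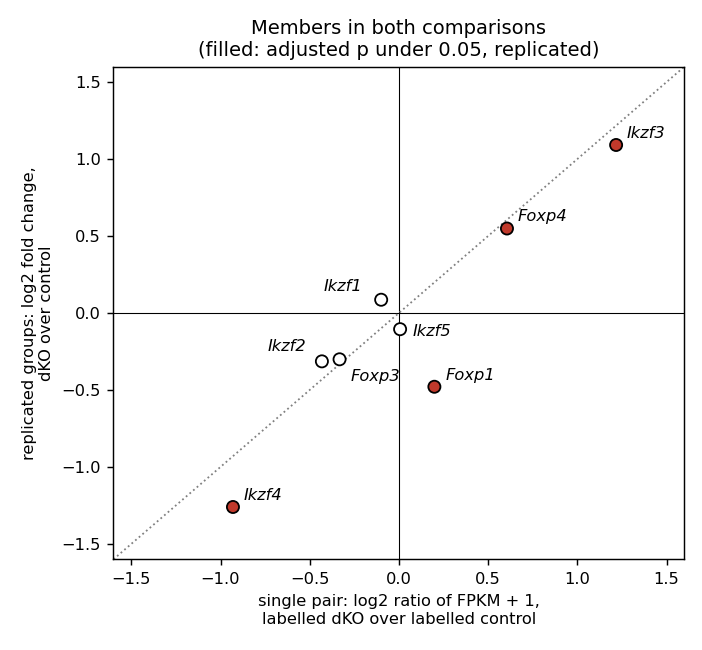
Log2 fold change of the replicated groups (vertical, dKO over control) against the log2 ratio of FPKM + 1 of the single pair (horizontal, labelled dKO over labelled control), 1 point per member, with a dotted line of equal values. Ikzf3 (1.09 and 1.22) and Foxp4 (0.55 and 0.61) lie near the line, Ikzf4 (-1.26 and -0.93) is low in both, and Foxp1 (-0.48 and 0.20) is on opposite sides of 0.

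By FPKM the order of levels also differed between the libraries of the pair. In the library labelled dKO the order was Ikzf3, Foxp4, Foxp3, Ikzf1, Foxp1, Ikzf2, Ikzf4 and Ikzf5. In the library labelled control it was Foxp3, Ikzf1, Ikzf3, Foxp4, Ikzf2, Ikzf4, Foxp1 and Ikzf5. Neighbours such as Ikzf3 (76.1 FPKM) and Foxp4 (73.9 FPKM) in the library labelled control cannot be told apart without replicates. Per kilobase of exon, Foxp3 had 2743 scaled counts in dKO, just under Ikzf1 at 2744. In control Foxp3 had 3380 and was the highest, as it was in the library labelled control. Ikzf5 was the lowest by both scales in all groups. In the pair Ikzf1 to Ikzf5 summed to 367 FPKM in the library labelled dKO and 322 FPKM in the library labelled control, so here the family sum was higher by 0.19 on the log2 scale. The ratio of Ikzf3 to Ikzf4 by FPKM was 5.31 in the library labelled dKO and 1.17 in the library labelled control, so Ikzf3 was above Ikzf4 in the library labelled control, unlike per kilobase in the control group. Ikzf3 alone made up 48.5% of the family sum in the library labelled dKO and 23.6% in the library labelled control.

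**Figure D5:**
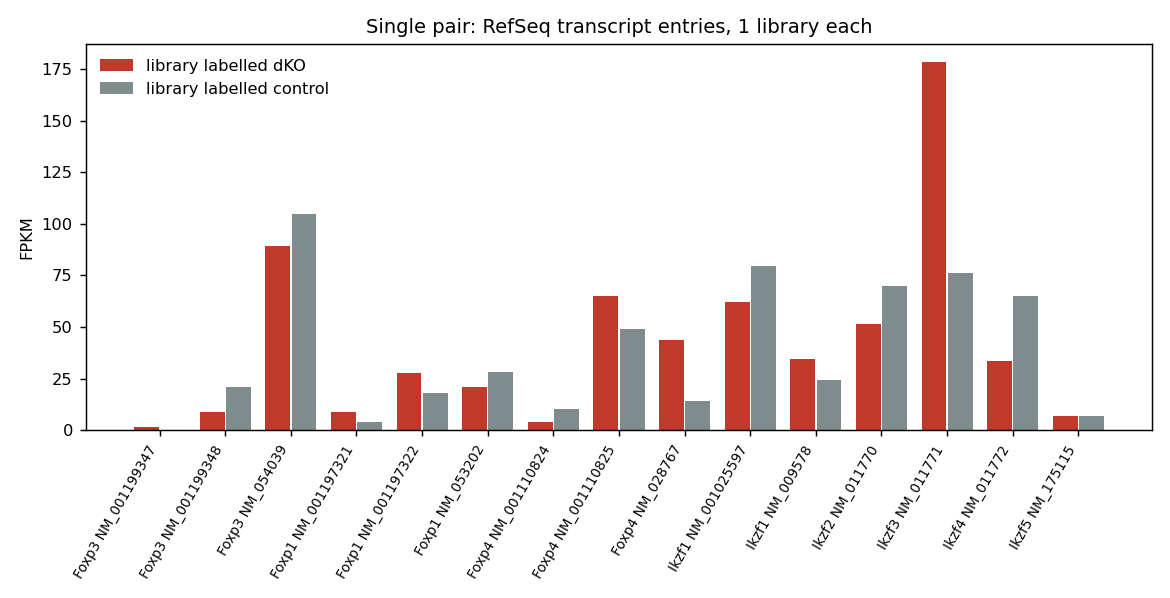
FPKM of each RefSeq transcript entry of the members in the single pair, the library labelled dKO left and the library labelled control right, 1 library each and so no error bar. The single entry of Ikzf3 is the highest bar (178 FPKM), and the entries of Foxp4 and Foxp1 do not all move the same way.

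The entries of a gene did not move together in the pair. For Foxp4, NM_028767 was at 43.7 FPKM in the library labelled dKO and 14.4 FPKM in the library labelled control, while NM_001110824 was at 4.04 FPKM in the library labelled dKO and 10.3 FPKM in the library labelled control. NM_001110825 made up most of the Foxp4 signal, 57.8% in the library labelled dKO and 66.6% in the library labelled control. For Foxp1, NM_053202 was at 21.2 FPKM in the library labelled dKO and 28.4 FPKM in the library labelled control. The other Foxp1 entries were higher in the library labelled dKO: NM_001197322 was at 28.0 FPKM in the library labelled dKO and 18.1 FPKM in the library labelled control. For Foxp3, NM_054039 carried 89.4% of the FPKM in the library labelled dKO and 83.4% in the library labelled control. For Ikzf1, NM_001025597 carried 64.1% in the library labelled dKO and 76.5% in the library labelled control. Entries of 1 gene share exons, so their split is estimated by the software, and with 1 library of each kind the error of that split is not known.

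The genes that work with these factors were counted in lists, each to be read against the share of genes that passed. That share is 6.56% of all genes and 13.3% of genes whose mean was at least 10, and the second is nearer to the levels of most listed genes. A count near these shares is not a result about its list. The lists were chosen with earlier results of these data known, so a count above these shares is not one either. Of 27 Foxp3 partners, 3 rose, 1 fell and 23 did not pass, with a median log2 fold change of 0.04. By the authors' deposited table, the rises were in Hif1a (log2 1.33), the hypoxia-inducible factor that can bind Foxp3, Ezh2 (log2 1.31), the histone H3 lysine 27 methyltransferase, and the histone deacetylase gene Hdac7 (log2 0.45). Of 33 genes whose products act on the Foxp3 gene, 6 rose, 0 fell and 27 did not pass. The 4 with the smallest adjusted p in the authors' deposited table were the nuclear receptor genes Nr4a3 (log2 0.79) and Nr4a1 (log2 0.69), the E protein gene Tcf3 (log2 0.67) and the maintenance methyltransferase gene Dnmt1 (log2 0.58). Foxp3 itself was lower and did not pass.

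Of 23 genes that modify the Foxp3 protein or its turnover, 4 rose, 1 fell and 18 did not pass. The kinase gene Pim1 averaged 18198 scaled counts in dKO and 9688 in control (log2 0.91) by the authors' deposited table. Cdk1 (log2 0.99) and Usp7 (log2 0.40), a deubiquitinase of Foxp3, also rose, and Hdac11 (log2 -0.87) fell, in the authors' deposited table. Genes known to be activated by Foxp3 split: of 27 tested, 3 rose, 6 fell and 18 did not pass, with a median log2 fold change of -0.03. Ikzf4 is in this list. By the authors' deposited table Itgae, which encodes CD103, averaged 1245 scaled counts in dKO and 6479 in control, Nt5e, which encodes CD73, averaged 3333 in dKO and 10816 in control, and Tigit averaged 5445 in dKO and 2703 in control. Of 19 genes known to be repressed by Foxp3, 1 rose, 4 fell and 14 did not pass, with a median log2 fold change of -0.25. By the authors' deposited table, Tbc1d4 (log2 -1.53), Il7r (log2 -0.70), Themis (log2 -0.75) and Ptpn22 (log2 -0.54) fell.

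Of 15 NuRD subunits, 0 rose, 1 fell and 14 did not pass; the one that fell was the helicase gene Chd3, with 24086 scaled counts in dKO and 32263 in control (log2 -0.42, adjusted p 0.0157, DESeq) in the authors' deposited table. Of 18 rows for other corepressors, 2 rose, Ezh2 and Hdac7, and 0 fell. Of 7 genes of the cereblon ubiquitin ligase, which degrades human Ikaros and Aiolos in cells treated with thalidomide analogues, 0 passed, and the 2 with the highest means, Ddb1 and Cand1, had log2 fold changes of 0.21 and 0.03 in the authors' deposited table.

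Among 21 genes linked to Ikaros proteins in lymphocytes, 3 rose, 4 fell and 14 did not pass, with a median log2 fold change of 0.29. By the authors' deposited table Dntt, the terminal transferase gene of immature lymphocytes, averaged 140 scaled counts in dKO and 16.4 in control (log2 3.10, adjusted p 2.23e-14, DESeq). Cdkn1a, a cell cycle inhibitor, averaged 615 in dKO and 172 in control in the authors' deposited table. The aryl hydrocarbon receptor gene Ahr averaged 712 in dKO and 1762 in control, and Cd7 averaged 279 in dKO and 867 in control, both in the authors' deposited table. Among 15 genes tied to Foxp1 and quiescence, 1 rose, 6 fell and 8 did not pass, with a median log2 fold change of -0.34. The cell cycle factor gene E2f2 rose by 1.38 on the log2 scale, while S1pr1 (-1.04), Pik3ip1 (-0.76) and Il7r were lower, in the authors' deposited table. These lists share genes with each other, and they describe the samples without a test of the list.

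Markers of other cells were counted in the same way. CD8 T cell and natural killer markers summed to 3554 scaled counts in dKO and 1907 in control, with 0 of 12 passing. Gzma averaged 2006 in dKO and 59.6 in control (adjusted p 0.126, DESeq) in the authors' deposited table, while Nkg7 averaged 383 in dKO and 791 in control. Of the CD8 chain genes in that table, Cd8b1 averaged 687 in dKO and 663 in control. Cd8a was far lower, at 26.7 in dKO and 16.9 in control. Of 9 plasma cell markers, 2 rose and 1 fell, Pou2af1. Mzb1 averaged 905 scaled counts in dKO and 11.2 in control (log2 6.34, adjusted p 1.37e-11, DESeq) and Prdm1 2053 in dKO and 1179 in control in the authors' deposited table, with a median log2 fold change of 0.64 over the list. Xbp1 (6388 in dKO and 3750 in control), Irf4 (9389 in dKO and 6590 in control), Igj (133 in dKO and 70.3 in control), Sdc1 (28.0 in dKO and 23.4 in control) and Tnfrsf17 (0 in dKO and 1.24 in control) did not pass in scaled counts of the authors' deposited table. Myeloid markers summed to 368 scaled counts in dKO and 375 in control, with 0 of 13 passing, and dendritic cell markers to 6198 in dKO and 5103 in control. Of 11 dendritic cell markers, 1 rose, Irf8 (log2 1.63), and 1 fell, Xcr1 (13.3 in dKO and 47.0 in control, log2 -1.82), in the authors' deposited table. Most of the dendritic sum came from Irf8 (3775 in dKO and 1217 in control) and Bst2 (2297 in dKO and 3705 in control). Zbtb46 averaged 57.7 in dKO and 94.3 in control, and Itgax 5.95 in dKO and 2.22 in control. Conventional CD4 T cell markers summed to 27256 in dKO and 26534 in control, with a median log2 fold change of -0.25. Among these 10, Actn1 was higher (log2 0.91) and Tdgf1 lower (log2 -2.41) in the authors' deposited table. Most of the conventional CD4 sum came from Actn1 (19625 in dKO and 10472 in control) and Igfbp4 (6130 in dKO and 14021 in control). These went in opposite directions, so the close sums do not show that the markers were unchanged, and Igfbp4 did not pass (adjusted p 0.309, DESeq). Stromal markers summed to 4614 in dKO and 4951 in control, with Col1a2 lower (25.6 in dKO and 108 in control, log2 -2.08) in the authors' deposited table. Col1a1 went the other way, with 125 in dKO and 94.9 in control, and did not pass. Of the stromal sum, Pecam1 alone gave 4398 in dKO and 4674 in control, and the authors' deposited table lists Ccl19 and Ccl21a at 0 in dKO. The part of these markers in the values of the members was not tested. In sorted pools, fewer cells of a type and less RNA per cell cannot be told apart.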

How the data were processed

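Complementary DNA was made with random hexamers and oligo-dT and sequenced on a HiSeq, per the labels' protocols. For the numbered libraries, the authors deposited 1 signal value per gene and group. These are called abundance per the file headers, but their fractional steps are those of reads divided by a size factor and averaged over a group. The authors also deposited the log2 ratio of the group means, a signed fold score that was not used here, and raw and adjusted p-values. RSEM and DESeq on mm10 are named in the submitters' processing notes, without versions. Deposited FPKM and p-values of the pair come from Cuffdiff (version given as 0.0.6) after TopHat 1.4.0 on mm9, per the submitters' processing notes. Those p-values compare 1 library with 1 and were not used.

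Tests on counts per library had been planned, but the table holds group means, so the authors' test was used as deposited, over all 31641 genes with a p. Log2 ratios and Benjamini-Hochberg values were computed again and differed from those deposited by at most 0.000211 and 0.00124, and the adjustment was tested on simulated data. In the pair, 97.5% of 27901 entries matched a RefSeq gene, FPKM was summed over the entries of a gene, and 1 FPKM was added before log2 ratios were taken, so changes of low genes are understated. Genes with 5 or more FPKM in either library entered. The 2 tables were not pooled.

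All 8 members are named, and of each other list up to 4 genes past the threshold with the smallest adjusted p, or the 2 with the highest mean where none passed. Foxp2, Ddx3y, Eif2s3y, Kdm5d, Uty, Xist, Cd4, Il2ra, overlapping genes and single markers were picked once their values had been seen. Some list genes that fall under this rule are not reported here. The members and lists were chosen with earlier results of these data known. Proteins were not compared; coding sequences from GENCODE M21 were aligned with Biopython 1.88 under Python 3.11.15.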

Additional observations from a re-analysis of the deposited data

How the results depend on the processing

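The 4 members called were also 4 with an adjusted p under 0.10 or under 0.01 and with the adjustment made over genes with a mean of 10 or more. Without genes marked as overlapping, 0 members were called, since Ikzf2 is then the only one tested. The median log2 fold change of the members was -0.20, against -0.24 with column totals and -0.19 with the median of all genes at 0. None of the 4 called members changed direction under these scalings or with a pseudocount of 1 or 10. These settings could not have reversed them. The scalings shift every gene by -0.036 or 0.0085, the smallest called change was -0.48 (Foxp1), and the pseudocounts are small beside the members' means. In the pair, 3 members past 1.5-fold became 2 for the highest entry and for FPKM over the column total, because of Foxp4 (0.40 and 0.57), and stayed 3 with a pseudocount of 0.1 or 0. Of the 8 members, 4 held the same place in the order of control levels by scaled counts per kilobase as by FPKM. Over the other lists there were 55 calls, and 32 without overlapping genes, where fewer genes are tested. A gene in several lists counts in each, and Ikzf4 is among the 55. These counts are not shares, so their drop does not show that listed genes passed less often. Over all genes 6.56% passed, and 6.69% of those not marked as overlapping.

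No paired analysis was possible because the deposited table holds 1 mean per group, and the replicate numbers are therefore lost. Leaving out a library was not run for the same reason: moving 1028 reads into 1 control library and 873 out of the other shifts a control mean by under 0.0001, the last decimal deposited, so the reads of a member in each library cannot be told. For that reason edgeR and DESeq2, planned only for recovered reads, were not run.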
